A study of Homo sapiens with 30 samples.

Results

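In SK-N-BE(2)c cells, an established human neuroblastoma line, RNA of cells given the antisense oligonucleotide ASO2 was compared with RNA of cells given a negative control oligonucleotide. The comparison rests on 6 of the 30 libraries of the series, 3 with ASO2 and 3 with the control, chosen by their labels. The series also covers IMR32 and NGP cells and uses 3 oligonucleotides, ASO1, ASO2 and ASO10, that target a long non-coding RNA called NESPR, with 1 negative control, NCA in the labels. Every oligonucleotide was given at 100 nM by lipofection, so the control cells had been through the same procedure. A further 3 SK-N-BE(2)c libraries with ASO10 entered the same statistical fit and served as a second comparison. Of the 57905 genes of the deposited table, 13307 had a mean normalised read count of at least 10 over the 6 libraries and were tested. The remaining genes were below that level and were not tested.

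Antisense oligonucleotides bind a complementary RNA and, in the gapmer design, direct its cleavage by RNase H in the cell. Adrenergic neuroblastoma cells resemble sympathetic neuroblasts and are held in that state by a circuit of transcription factors that includes PHOX2A, HAND2, GATA3 and ISL1. Stress of several kinds meets in the integrated stress response, in which phosphorylation of the translation factor eIF2 lowers general protein synthesis and favours translation of the transcription factor ATF4, while misfolded cytosolic proteins release the heat shock factor HSF1 onto chaperone genes.

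The 9 libraries held 11497829 to 15060356 recovered reads each. The 3 groups separated from each other on the first and second principal components, which held 44.2% and 38.8% of the variance. On the first, the control (12.2 to 13.9) lay between ASO2 (-48.5 to -43.1) and ASO10 (29.9 to 34.2). On the second, ASO2 (7.25 to 12.3) and ASO10 (25.2 to 38.6) both lay above the control (-44.4 to -38.8). Because NESPR was not analysed by name, its knockdown was not checked here. LINC00682 (ENSG00000245870), a non-coding RNA gene picked with its values known, had levels of 85.1, 106 and 84 with ASO2 and 152, 135 and 157 with the control, and it fell by 0.69 on the log2 scale. The adrenergic markers PHOX2A, HAND2, GATA3, ISL1, TH, DBH, DDC, CHGA and CHGB were all tested, and the lowest value among them in any of the 6 libraries was 629, for ISL1. Replicate 1 of the control carries another spelling of the control's name in the table than replicates 2 and 3, and the labels do not settle whether it was the same oligonucleotide. The labels do not say that replicates were separate cultures, so the p-values below measure the spread between these libraries. Which of 2 library kits, one for total RNA and one for mRNA, each library had is not stated in the labels. In bulk RNA, fewer cells of a kind and less RNA per cell cannot be told apart.

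With ASO2, 4504 genes were higher and 4503 were lower than with the control at a Benjamini-Hochberg adjusted p under 0.05 in limma. Calls were made for 67.7% of the genes tested, 33.8% in each direction, which is the background for every count that follows. The median log2 fold change of all genes was -0.02. A log2 fold change of at least 1 was reached by 564 higher genes (4.24% of those tested) and by 1133 lower genes (8.51%). The direction of small changes depended on scaling. When every library was brought to the same total, the median of all genes moved to -0.16, and 3465 genes (26.0%) were higher and 5595 (42.0%) lower. Lists are therefore described relative to all genes, and a list is called higher or lower on balance only where its median lay on the same side of the median of all genes under 3 scalings. All fold changes below are on the scale of log2(value + 1), with the standard error from limma, and levels are normalised read counts in replicates 1, 2 and 3.

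**Figure D1:**
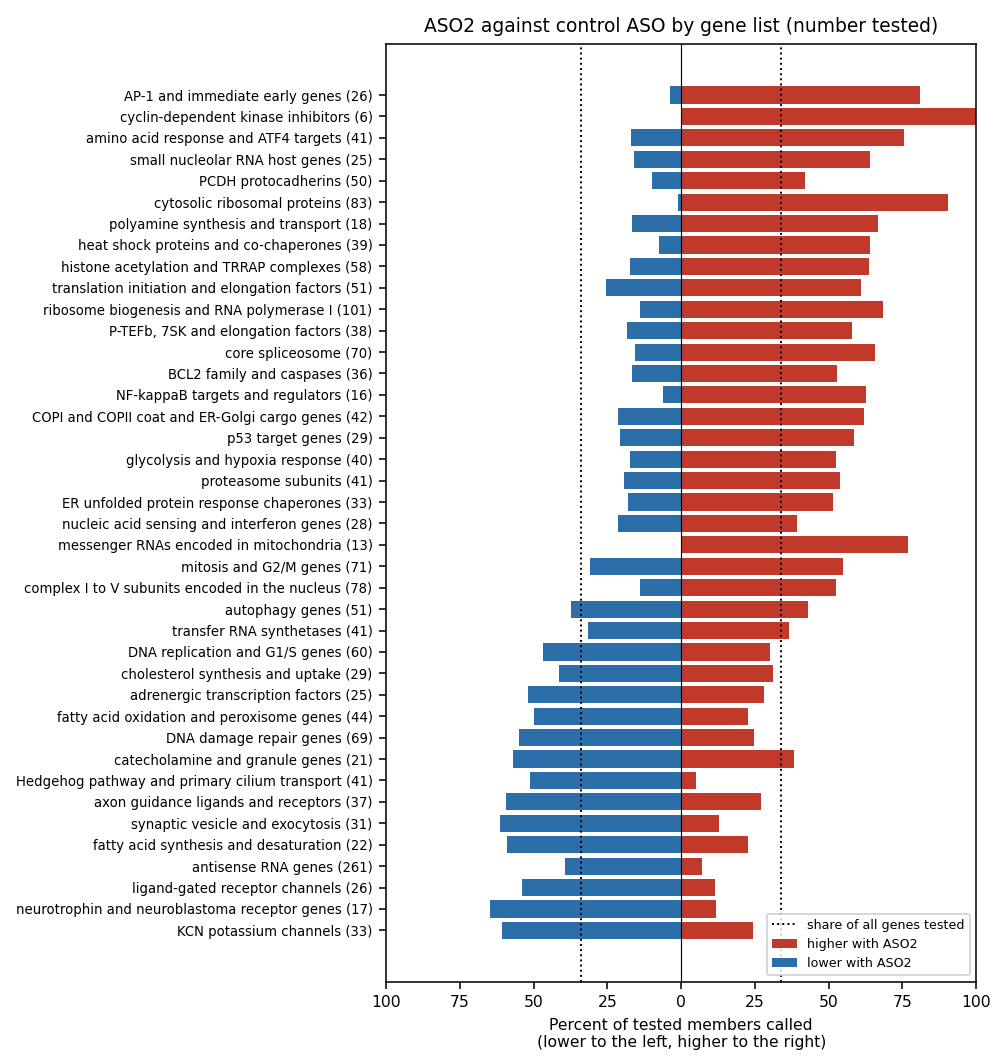
Percent of tested members of 40 gene lists called higher (to the right, red) or lower (to the left, blue) with ASO2 than with the control, in order of the list's median log2 fold change. Dotted lines mark the 33.8% of all genes called in each direction; cytosolic ribosomal proteins, cyclin-dependent kinase inhibitors and immediate early genes reach farthest to the right, and neuroblastoma receptors, synaptic genes and potassium channels reach far to the left.

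Genes of the immediate early class, which are switched on within minutes of a stimulus and include the AP-1 factors, were higher on balance with ASO2. Of 26 tested, 21 rose and 1 fell, with a median log2 fold change of 0.81. FOS, an AP-1 subunit, had levels of 334, 292 and 295 with ASO2 and 88.9, 80.7 and 44.3 with the control. All ASO2 libraries lay above all control libraries, and control replicate 3 was the lowest. The log2 fold change of FOS was 2.15 ± 0.19 (SE, n = 3 per group, limma adjusted p = 6.6e-11). NR4A3, an orphan nuclear receptor, went from 11.5, 21.2 and 18.3 with the control to 127, 121 and 199 with ASO2, a log2 fold change of 3.06 ± 0.25 (limma adjusted p = 1.4e-11). The groups did not overlap, and ASO2 replicate 3 was the highest of the 6. EGR1, a zinc finger factor induced by ERK signalling, was at 509, 431 and 513 with ASO2 and at 215, 254 and 189.9 with the control (log2 fold change 1.14). NR4A1 was at 1127, 1128 and 1061 against 522, 498 and 501, with little spread in either group. The early response gene IER3 rose by 2.17 on the log2 scale, FOSB by 1.58, JUNB by 0.96 and IER2 by 0.89. JUN, the main partner of FOS, did not pass the test, with 1276, 1202 and 1236 against 1271, 1104 and 1109 and overlapping groups, though it was called higher without control replicate 1 (0.16). RHOB, a small GTPase gene of the same class, was the member called lower, at -0.15, and that call was lost in DESeq2 and without control replicate 1 (-0.09) or 2 or ASO2 replicate 3. Gene length moved with these results: 20 of the 26 genes were in the shortest of 5 equal length classes of protein-coding genes. The median stayed at 0.76 when taken relative to genes of the same length class.

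The CArG box, bound by serum response factor in immediate early promoters, is shown for EGR1 in the RefSeq sequence of build GRCh38.p14 (chr5:138465349-138465408, plus strand), whose window holds 2 boxes, both in capitals. The letters CC, then 6 of A or T, then GG were searched on both strands in the 250 bases before each start and were present in 1.5% of the 9903 tested genes with a promoter sequence, in 1.16% of all 35116 promoters, and in 2 of 20 immediate early genes matched.
EGR1: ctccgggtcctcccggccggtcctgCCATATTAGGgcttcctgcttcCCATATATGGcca

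Negative feedback genes of the ERK pathway, which these early genes often accompany, were higher on balance. The lists share members, with EGR1 and IER3 counted in both and IER3 also among the NF-kappaB genes below. 12 of 25 rose and 8 fell, with a median of 0.43 (0.29 relative to the length class). The risers included the phosphatase gene DUSP6 (1.20), the feedback inhibitors SPRY2 (0.92) and SPRY4 (0.60), and the ETS factors ETV5 (1.09) and ETV4 (0.71). ETV5 had 1505, 1466 and 1609 with ASO2 and 724, 718 and 707 with the control, and the groups were far apart. DUSP4 fell by 0.15, a call that was lost without control replicate 1. DUSP1 was at 0.21 (limma adjusted p = 0.14).

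**Figure D2:**
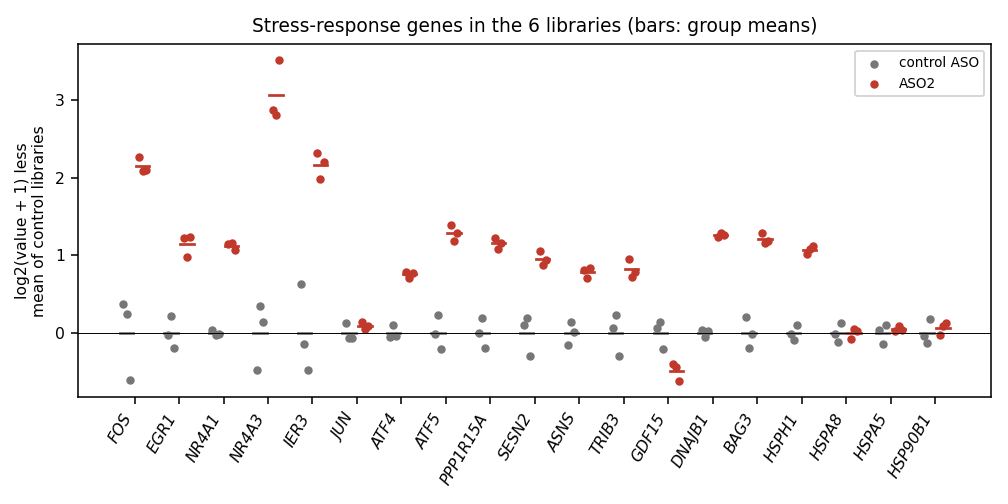
Levels of 19 stress-response genes in the 3 ASO2 (red) and 3 control (grey) libraries, as log2(value + 1) less the mean of the control libraries, with a bar at each group's mean. FOS, NR4A3 and IER3 sit highest with ASO2, the ATF4 targets about 1 unit up, GDF15 lies below the control, and the chaperones HSPA8, HSPA5 and HSP90B1 overlap the control libraries.

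ATF4 and the genes of the amino acid response were higher on balance with ASO2. Of 41 tested, 31 rose and 7 fell, with a median of 0.53. ATF3 and PPP1R15A, both called higher, are also counted among the immediate early genes. ATF4 itself was at 8239, 7816 and 8171 with ASO2 and 4579, 5099 and 4651 with the control, a log2 fold change of 0.76 ± 0.05 (limma adjusted p = 7.1e-13). The related factor ATF5 was at 5569, 4822 and 5195 against 2101, 2491 and 1849, and its log2 fold change was 1.28 ± 0.08. Neither gene's groups overlapped. PPP1R15A, which encodes the phosphatase subunit that reverses eIF2 phosphorylation, rose from 1004, 1152 and 877 to 2351, 2118 and 2236 (1.15). SESN2, an inhibitor of mTORC1 signalling, rose by 0.95, and TRIB3, a pseudokinase that restrains ATF4, by 0.82.

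Amino acid supply genes moved with them. SLC3A2, the heavy chain of several amino acid exchangers, had the largest rise of the list, from 2561, 2458 and 2565 to 6623, 6227 and 6537 (log2 fold change 1.35 ± 0.05, limma adjusted p = 1.8e-17). The neutral amino acid transporter SLC38A2 rose by 1.02, asparagine synthetase ASNS by 0.78, and the serine pathway enzymes PHGDH and PSAT1 by 0.83 and 0.67. DDIT3, which encodes CHOP, rose by only 0.22 and CHAC1, a glutathione-degrading enzyme, by 0.37. Both of these calls were lost under total scaling (0.08 and 0.23), and that of DDIT3 also without ASO2 replicate 1 or 3 or control replicate 1. Members of the same list went the other way. ALDH1L2, a mitochondrial folate enzyme, had 347, 429 and 389.9 with ASO2 and 978, 1035 and 950.3 with the control (-1.35). PCK2, mitochondrial phosphoenolpyruvate carboxykinase, fell by 0.80 on the log2 scale and cystathionine beta-synthase (CBS) fell by 0.74. GDF15, a secreted stress cytokine, was at 203, 199 and 174 with ASO2 and 281, 297 and 232 with the control, and the groups did not overlap. SLC7A11, the cystine transporter, was at -0.13 with overlapping libraries (limma adjusted p = 0.26).

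The element TGATGNAA, read on either strand and known from genes bound by ATF4, occurred in the 250 bases before the start of 6 of 33 matched members of this list. It occurred in 2.25% of the 9903 tested genes matched and in 3.14% of all 35116 promoters. Of the 6, ASNS, CHAC1, ATF3, CEBPG and SLC1A5 were called higher (83.3%, against 75.6% of the whole list) and JDP2 lower. The median log2 fold change was 0.55 in the 6 and 0.61 in the matched members without the element. The matches of 3 of them are shown with the element in capitals (RefSeq, GRCh38.p14), for ASNS at chr7:97872443-97872502, minus strand, for CHAC1 at chr15:40953236-40953295, plus strand, where the element reads on the opposite strand, and for ATF3 at chr1:212565190-212565249, plus strand. The palindrome TGACGTCA, a site of CREB and ATF factors, is shown for PPP1R15A (chr19:48872337-48872396, plus strand). PPP1R15A was the only one of the 33 matched members to hold it, 3.03% of them, near the 3.64% of tested genes, and it lay in 1.65% of all promoters. A match is a description of these letters only.
ASNS: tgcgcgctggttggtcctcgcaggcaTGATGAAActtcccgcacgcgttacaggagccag
CHAC1: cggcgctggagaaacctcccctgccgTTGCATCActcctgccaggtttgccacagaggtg
ATF3: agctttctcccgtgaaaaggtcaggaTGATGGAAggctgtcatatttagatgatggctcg
PPP1R15A: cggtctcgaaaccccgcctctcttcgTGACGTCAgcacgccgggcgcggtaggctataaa

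The endoplasmic reticulum arm of the stress response moved less. Of 33 genes of the unfolded protein response, 17 rose and 6 fell (median 0.20, or 0.12 relative to the length class). HSPA5, the main chaperone of this compartment, had 9108, 9479 and 9185 with ASO2 and 9199, 8063 and 9619 with the control, and the libraries overlapped (limma adjusted p = 0.41). HSP90B1, MANF and SDF2L1, which are luminal chaperone genes, had log2 fold changes of 0.06, 0.03 and 0.07 and did not pass the test either. Members that rose included HERPUD1, a degradation factor (0.95), the kinase EIF2AK3 (PERK, 0.80) and HYOU1 (0.57). XBP1 rose by 0.19, a call lost under total scaling (0.05). ATF6, a membrane-bound sensor, fell by 0.68 on the log2 scale, the mannosidase-like EDEM3 fell by 0.97 and the disulfide isomerase PDIA4 fell by 0.57.

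Transport between the endoplasmic reticulum and the Golgi also split by gene. In the list of coat and cargo genes 26 of 42 rose and 9 fell (median 0.27). The coatomer subunit ARCN1 rose by 0.67 while another subunit, COPA, fell by 0.71. The cargo receptor LMAN1 fell by 1.20 and the Arf exchange factor GBF1 fell by 1.13. Among translocon, signal peptidase and glycosylation subunits, 25 of 49 rose and 15 fell, with SEC61A1 at 0.57 and OSTC at -1.04. Under total scaling that balance turned, with 20 higher and 21 lower, and the median of 0.18 became 0.09 relative to the length class.

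Cytosolic heat shock genes were higher on balance, 25 of 39 up and 3 down, with a median of 0.35. Under total scaling the count of lower members went to 7. DNAJB1, the HSP40 that hands substrates to HSP70, had 2839, 2933 and 2882 with ASO2 and 1235, 1158 and 1219 with the control (log2 fold change 1.26 ± 0.06, limma adjusted p = 3.3e-16). HSPH1, a nucleotide exchange factor of HSP70, went from 5069.9, 4797 and 5466 to 10290.4, 10826 and 11090.1 (1.07). In both genes the ASO2 libraries lay close to each other and far above the control libraries. BAG3, a co-chaperone of selective autophagy, rose by 1.21 and AHSA1, an activator of HSP90, by 1.07. HSP90AA1 rose by 0.47 from 22794, 22396 and 25954 to 30602, 33060.1 and 35058. The inducible HSP70 genes HSPA1A and HSPA1B rose by 0.54 and 0.48, but these are near-identical copies and their reads could be split between them, so each value is uncertain. HSPA8, the constitutive HSP70, was at 26325, 28598 and 28234 with ASO2 and 27541, 25649 and 30135 with the control, with overlapping libraries (limma adjusted p = 0.99). PTGES3, the HSP90 co-chaperone p23, fell by 0.30.

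Heat shock elements, searched as GAANNTTC, lay in the 250 bases before the start of 14 of 34 matched members of this list, against 5.65% of tested genes and 5.78% of all promoters. Of the 14, 10 were called higher (71.4%, against 64.1% of the whole list) and 0 lower, and HSPA8, HSPB1, HSPA1L and DNAJA4 were not called. The median log2 fold change was 0.40 in the 14 and 0.42 in the matched members without the element. Here too a match describes the letters only. The promoters of DNAJB1 (chr19:14518441-14518500, minus strand), HSPA1A (chr6:31815411-31815470, plus strand) and HSP90AA1 (chr14:102087094-102087153, minus strand), which rose, are set beside that of HSPA8 (chr11:123062327-123062386, minus strand), which was not called, with the first match in capitals. DNAJB1 and HSPA8 each held 2 matches.
DNAJB1: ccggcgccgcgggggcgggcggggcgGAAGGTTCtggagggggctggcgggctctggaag
HSPA1A: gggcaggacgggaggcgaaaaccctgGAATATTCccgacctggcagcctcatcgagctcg
HSP90AA1: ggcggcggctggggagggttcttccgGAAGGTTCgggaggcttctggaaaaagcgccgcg
HSPA8: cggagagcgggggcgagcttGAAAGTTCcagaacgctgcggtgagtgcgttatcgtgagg

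Protein folding and breakdown machines were mixed. The cytosolic chaperonin and prefoldin list had 9 members higher and 5 lower of 14, so subunits of the same ring went in opposite directions. Its median was 0.31, or 0.16 relative to the length class. TCP1 rose by 0.62, while CCT7 went from 4217, 4090.3 and 4343 to 1768, 1888 and 1718 (-1.24) and CCT6A fell by 0.91. Proteasome subunits were higher in 22 of 41 cases and lower in 8 (median 0.23, or 0.11 relative to the length class), with 15 and 11 under total scaling. PSMD3, of the regulatory particle, rose by 0.62, and PSMA5, of the core, went from 2787, 2972 and 3013 to 1354, 1487 and 1532 (-1.01).

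Inhibitors of cyclin-dependent kinases, which hold cells in G1, all rose where tested, 6 of 6 members, with a median of 0.80 and 5 of them still called under total scaling. CDKN2A was at 663, 585 and 621 with ASO2 and 323, 332 and 328 with the control (0.92). CDKN2B was at 177, 180.4 and 169 against 95.2, 88.7 and 89.6 (0.94), CDKN2C rose by 0.83, CDKN2D by 0.76 and CDKN1B by 0.40. The p21 gene CDKN1A rose by 0.46 from a low level, 47.1, 53.4 and 46.3 with the control and 76.2, 70.7 and 57.6 with ASO2 (limma adjusted p = 0.032). The call was lost under total scaling, in DESeq2 and when any of 4 of the 6 libraries was left out (control replicates 1 and 3, ASO2 replicates 1 and 2).

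Of the 29 p53 target genes tested, 17 rose and 6 fell, and under total scaling 10 were higher. The list median was 0.24, or 0.17 relative to the length class. TP53INP1, a stress protein that promotes autophagy and death, had 198, 209 and 226 with ASO2 and 51.3, 50.4 and 49.2 with the control, a log2 fold change of 2.05 ± 0.15 (limma adjusted p = 1.6e-12). GADD45A rose by 1.03, the translesion polymerase POLH by 1.14 and the phosphatase PPM1D by 1.02. MDM2, the p53 ubiquitin ligase, rose by 0.29, and BAX by 0.15, a call lost under total scaling (0.01) and when any library other than control replicate 2 was left out. TIGAR, GDF15, DDB2 and TP53I3 were among the members that fell, and the lowest log2 fold change of the list was -0.63. BTG2 was not called.

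Genes of the BCL2 family and the caspases were higher on balance, 19 up and 6 down of 36 (median 0.29). The largest rise was in BMF, a BH3-only activator of apoptosis, at 189, 192 and 164 with ASO2 and 40.8, 47.4 and 54.9 with the control (1.91 ± 0.18, limma adjusted p = 3.3e-10). Other BH3-only genes rose less, BBC3 (PUMA) by 0.69, PMAIP1 (NOXA) by 0.60 and BCL2L11 (BIM) by 0.43. The death receptor gene TNFRSF1A rose by 1.87 from 60.7, 67.6 and 53 to 235, 223 and 209. Survival genes differed from each other. BCL2 was at 136, 149 and 150.0 with ASO2 and 322, 296 and 336 with the control (-1.13), BCL2L2 fell by 0.87, MCL1 rose by 0.53 and BCL2L1 was at -0.01 (limma adjusted p = 0.88). DIABLO, which encodes a mitochondrial antagonist of caspase inhibitors, fell from 419.6, 373 and 400.0 to 150.3, 176 and 113 (-1.46).

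Regulators of NF-kappaB were higher in 10 of 16 cases and lower in 1. The feedback inhibitor NFKBIA rose by 0.60, the subunit genes NFKB2 and REL by 1.09 and 0.90, and TNFAIP3 by 1.04 from 10.5, 12.1 and 15.4 to 22.1, 29.9 and 28.8. Among 28 genes of nucleic acid sensing and the interferon response, 11 rose and 6 fell, with a median of 0.20 that became 0.03 relative to the length class. The transcription factor genes IRF7 (1.69), IRF9 (1.55) and IRF1 (1.07) were among the risers. The adaptor MAVS fell by 1.04 and the kinase TBK1 fell by 0.92, and IFIT1, a gene induced strongly by interferon, was at 7.73, 14.5 and 31.2 against 9.42, 7.06 and 7.71, with wide spread among ASO2 libraries and no call.

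Cytosolic ribosomal protein genes, which build both subunits of the ribosome, were higher on balance. 75 of 83 rose and 1 fell, with a median of 0.41 and a range from -0.35 to 0.88. RPLP0, a stalk protein of the large subunit, had 22783, 22667 and 24284 with ASO2 and 16928, 17362 and 17328 with the control (0.43 ± 0.05, limma adjusted p = 1.1e-08). RPS6, a small subunit protein phosphorylated downstream of mTOR, was at 10819, 11264 and 11823 against 7935, 8721 and 9158 (0.39). The groups were separate for both. RPS3A (0.88), RPL21 (0.86) and RPL39 (0.85) had the largest rises among the members with a mean of at least 20, and RPS24 was the member that fell, from 5863, 6229 and 7386 to 4572, 5006 and 5642. RPL3 was at 0.11 and turned to -0.03 under total scaling, and its call was also lost with TMM. After total scaling 69 members were higher and 4 lower. These genes are short, 63 of 83 in the shortest length class, and relative to genes of their own length class the median was 0.24; many also have processed pseudogenes that could share reads with them.

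Messages of this class characteristically begin with a cytosine and a run of pyrimidines, the TOP motif, through which mTOR controls their translation. A cytosine followed by at least 4 pyrimidines at the RefSeq start was found for 48 of 67 matched ribosomal protein genes, against 7.48% of tested genes and 4.07% of all 35116 start windows. Of those 48, 43 were called higher and 1 lower. The share called higher, 89.6%, was near the 90.4% of the whole list. The median log2 fold change was 0.43 with such a start and 0.37 in matched members without it. It was also found in 10 of 40 matched translation factors, of which 6 rose and 3 fell, and in 5 of 21 host genes of small nucleolar RNAs, of which 4 rose. The windows below run from 10 bases before the start, with the start run in capitals, and set the risers RPLP0 (chr12:120201092-120201121, minus strand), RPS6 (chr9:19380217-19380246, minus strand), EEF2 (chr19:3985444-3985473, minus strand) and EIF4A2 (chr3:186783567-186783596, plus strand) beside RPS24 (chr10:78033853-78033882, plus strand), which fell with the same kind of start.
RPLP0: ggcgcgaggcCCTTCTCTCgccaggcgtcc
RPS6: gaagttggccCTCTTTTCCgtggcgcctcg
EEF2: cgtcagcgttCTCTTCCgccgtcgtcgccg
EIF4A2: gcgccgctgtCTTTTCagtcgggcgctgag
RPS24: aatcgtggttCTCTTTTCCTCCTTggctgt

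Translation factors were higher on balance, 31 up and 13 down of 51 (median 0.32, or 0.19 relative to the length class). EIF4A2, a helicase of the cap complex, went from 5325, 5479 and 5848 to 12325, 12273 and 12878 (log2 fold change 1.17 ± 0.05). The scaffold EIF4G1 rose by 0.93, the elongation factor EEF2 by 0.59 and EEF1D by 0.93. EIF4E, which binds the cap, was lower at 137, 145 and 149 against 249, 212 and 253 (-0.72). Of 101 genes of ribosome biogenesis and RNA polymerase I, 69 rose and 14 fell (median 0.31, or 0.18 relative to the length class). UTP11 rose by 1.10 and nucleolin (NCL) by 0.38. The processing factors RRP7A (-1.54), MDN1 (-1.29) and HEATR1 (-1.11) fell, and NPM1 was at 0.14 (limma adjusted p = 0.075).

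Host genes of small nucleolar RNAs carry those guide RNAs in their introns. 16 of 25 rose and 4 fell, with a median of 0.50. SNHG17 was at 2454, 2475 and 2545 with ASO2 and 1045, 1109 and 1030.3 with the control (1.23), SNHG15 rose by 0.91 and SNHG14 fell by 0.78. Transfer RNA synthetases were split, 15 higher and 13 lower of 41, and 12 and 18 under total scaling. NARS1 and GARS1, which charge asparagine and glycine, rose by 1.07 and 0.90, and EPRS1, which charges glutamate and proline, fell from 6055, 6448 and 6817 to 2691, 2974 and 3051.

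Genes that control the release of paused RNA polymerase II were higher on balance, 22 up and 7 down of 38 (median 0.30). HEXIM1, which holds the elongation kinase P-TEFb in its inactive 7SK complex, was at 1144, 1095 and 1148 with ASO2 and 511, 449.7 and 455 with the control (1.26 ± 0.07, limma adjusted p = 2.4e-14). CDK9, the kinase itself, rose by 0.29, a call lost under total scaling, while its cyclin CCNT1 went from 1733, 1851 and 1839.8 to 657, 624 and 669 (-1.47). CDK12, a second elongation kinase, rose by 0.98, while its cyclin CCNK was at 286, 310.0 and 279.5 with ASO2 and 1034, 1120.1 and 1208 with the control (-1.94 ± 0.07). For both kinases the cyclin and the kinase thus differed in direction. CDK13, another kinase of this list, was called lower, as CCNK was. The elongation factor ELL rose by 1.22.

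RNA processing genes followed with mixed members. Core spliceosome genes rose in 46 of 70 cases and fell in 11. SF3B1 (0.74) and U2AF2 (0.93), which recognise the branch site and the polypyrimidine tract, rose, and PRPF38A fell by 1.36. In the SR and hnRNP list 35 of 60 rose and 17 fell (median 0.26, or 0.14 relative to the length class). The kinase CLK1, which phosphorylates SR proteins, rose by 0.94, while another such kinase, SRPK1, fell by 1.09. SRRM4, a regulator of neuronal microexons, went from 834, 782 and 727 to 269, 272 and 254 (-1.55). PCF11, a 3′ end processing factor, rose by 1.04. The nuclear RNA NEAT1, the scaffold of paraspeckles, was at 539, 562 and 525 with ASO2 and 1886, 2355 and 2158 with the control, a log2 fold change of -1.97 ± 0.07 (limma adjusted p = 8.8e-18). MALAT1, a nuclear speckle RNA, fell by 0.54.

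Histone acetylation genes were higher on balance, 37 of 58 up and 10 down (median 0.35). The acetyltransferase EP300 was at 4867, 4748 and 4913 with ASO2 and 2163, 2029.5 and 1875 with the control (1.26), its paralog CREBBP rose by 0.55 and the scaffold TRRAP by 0.57. SUPT3H, KAT2B, JADE3 and KAT6B were among the members that fell. In all, 4 members fell by at least 1 on the log2 scale, and the lowest was at -1.63. In the histone methylation list 31 of 58 rose and 16 fell. KDM5B, a demethylase, rose by 1.39. The methyltransferases SETDB1 (-1.35), ASH1L (-1.35) and SETD2 (-1.13) fell, and ASH1L went from 2995, 3104 and 2908 to 1157, 1135 and 1248. CHD2, a chromatin remodeller, rose from 4054, 4660.0 and 4032 to 11764, 11249 and 13011 (1.50), and YY1, a zinc finger factor of Polycomb and enhancer loops, fell by 1.26.

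Adrenergic transcription factors were lower on balance. 13 of 25 fell and 7 rose, with a median of -0.21. PHOX2A, a homeobox factor of sympathetic identity, was at 2476, 2496 and 2137 with ASO2 and 3542, 3077 and 3062 with the control, a log2 fold change of -0.45 ± 0.06 (limma adjusted p = 6.7e-07). HAND2, a bHLH factor, was at 4528, 4843 and 4537 against 6001, 5717 and 6021 (-0.35), and neither gene's groups overlapped. MEIS2 had the largest fall of the list, from 2237, 2084 and 2264 to 787, 779 and 729 (-1.52). Other members of the same circuit rose. ISL1 was at 1001, 974 and 954 with ASO2 and 677, 629 and 673 with the control (0.57), TBX3 rose by 0.54, SATB1 by 0.72 and SOX4 by 0.92. GATA3 was at 0.18, a call lost under total scaling (0.04) and without ASO2 replicate 2 or control replicate 3. The oncogene MYCN, amplified in this line, was at 19952, 20723 and 18322 with ASO2 and 32304, 28362 and 29682 with the control (-0.61 ± 0.05, limma adjusted p = 7.3e-11).

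Relative to genes of the same length class the median of the adrenergic list was -0.06, with 8 of 25 members in the longest length class; the part of length in the result was not tested. Of the 19 tested genes of the mesenchymal state, the alternative state of neuroblastoma cells, 5 rose and 6 fell. VIM, an intermediate filament gene, rose by 0.48 and CD44, a hyaluronan receptor, fell by 1.13.

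Genes of catecholamine handling and secretory granules were lower in 12 and higher in 8 of 21 cases, and lower on balance (median -0.28). SLC6A2, the norepinephrine transporter through which neuroblastoma takes up radiolabelled MIBG, was at 1856, 2016 and 1813 with ASO2 and 5491, 5318 and 5332 with the control (-1.51 ± 0.05, limma adjusted p = 3.3e-18). Synthesis genes differed: TH, the rate-limiting hydroxylase, fell by 0.39 and DDC fell by 0.53, whereas DBH, which makes norepinephrine, was at 0.27, a call lost under total scaling. The vesicular transporter SLC18A2 fell by 0.67. Granule proteins rose in part. VGF, a secreted peptide precursor, was at 13422, 11955 and 10688 with ASO2 and 5158, 4281 and 3978 with the control (1.43), SCG2 rose by 0.62, CHGB by 0.43 and the peptide gene NPY by 0.45, while CHGA fell by 0.19.

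**Figure D3:**
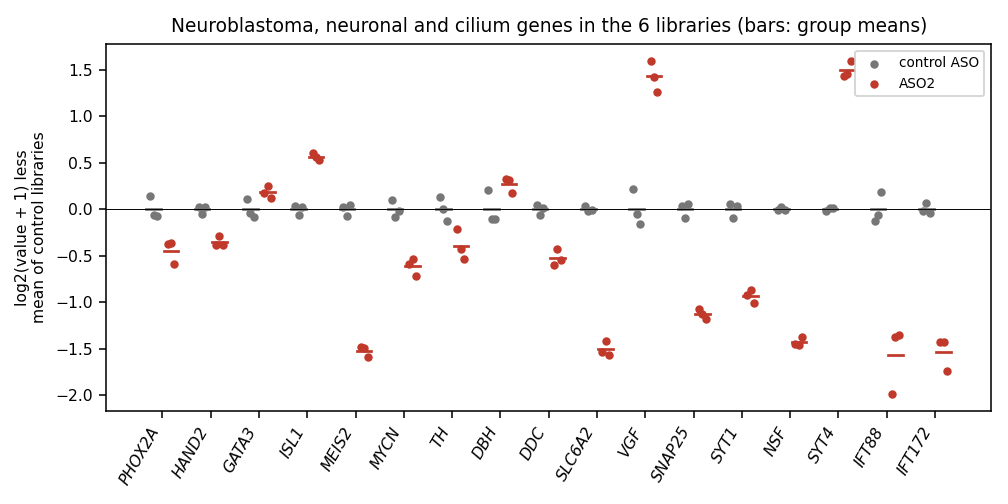
Levels of 17 neuroblastoma, neuronal and cilium genes in the 3 ASO2 (red) and 3 control (grey) libraries, as log2(value + 1) less the mean of the control libraries, with a bar at each group's mean. MYCN lies about 0.6 below the control and SLC6A2, NSF and IFT172 about 1.5 below, while ISL1, VGF and SYT4 lie above it.

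Synaptic vesicle and exocytosis genes were lower on balance, 19 of 31 down and 4 up, with a median of -0.37. SNAP25, a SNARE of vesicle fusion, was at 659, 635 and 613 with ASO2 and 1426, 1306 and 1447 with the control (-1.13). NSF, the ATPase that takes SNARE complexes apart, was at 421, 419 and 444 against 1144, 1168 and 1139 (-1.42 ± 0.07). The calcium sensor SYT1 fell by 0.94, the clathrin adaptor SNAP91 fell by 1.57 and the active zone protein PCLO fell by 1.39. SYT4 went the other way, from 959.6, 982 and 981 to 2635, 2662 and 2952 (1.49), as did SV2A (0.83). In this list 13 of 31 genes belonged to the longest length class, and the median relative to the length class was -0.33.

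Receptors were mostly lower as well. Of 17 receptors known from neuroblastoma, 11 fell and 2 rose (median -0.49). ALK, the receptor kinase mutated in familial neuroblastoma, was at 54.1, 57.1 and 44.4 with ASO2 and 122, 94.8 and 119 with the control (-1.09 ± 0.19, limma adjusted p = 1.5e-05). IGF1R fell by 0.81, the GDNF family receptor GFRA2 fell by 1.05 and RET fell by 0.17, while EPHB3 rose by 1.38. Here 8 of 17 genes were in the longest length class, and the median relative to the length class was -0.18. Axon guidance genes fell in 22 of 37 cases and rose in 10, with 18 of 37 in the longest length class and a median of -0.34 that became -0.14 relative to the length class. The netrin receptor UNC5C was at 1171, 1323 and 1157 with ASO2 and 2957, 2615 and 2820.0 with the control (-1.20), the Slit receptor ROBO1 fell by 0.59 and EFNA5 fell by 1.39, whereas EFNA1 rose by 1.21 and PLXNB2 by 0.83.

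The axon and neuronal cytoskeleton list was split, 12 higher and 13 lower of 32. Neuronal tubulin TUBB3 rose from 136, 154 and 137 to 390.0, 361 and 385 (1.41) and doublecortin, DCX, by 0.83. MAPT, which encodes tau, fell by 1.03 and the kinesin KIF21A fell by 0.98.

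Ion channel families were lower on balance. Of 33 potassium channel genes tested, 20 fell and 8 rose, with a median of -0.66, or -0.36 relative to the length class. KCNQ5 was at 127, 149 and 129.6 with ASO2 and 383, 331 and 378 with the control (-1.42) and KCNH8 fell by 1.56. KCNJ2, an inward rectifier, had one of the 10 largest rises among genes with a mean of at least 50 whose groups did not overlap, from 63.8, 62.5 and 65.5 to 381, 398 and 413 (2.62 ± 0.14, limma adjusted p = 2.3e-15). Ligand-gated channels fell in 14 of 26 cases and rose in 3; the median was -0.48, and -0.19 relative to the length class, with 11 of 26 in the longest. The kainate receptor gene GRIK2 fell by 1.15. Of 8 sodium channel genes 5 fell, among them SCN8A (-1.13), and 1 rose, SCN2A (0.58), named after its value was seen and not called without control replicate 2 (0.31). Of these 6 were in the longest length class, and the median of -0.42 became -0.10 relative to the length class. Of 7 cadherin genes of the CDH series tested 4 fell and 2 rose, and CDH2, N-cadherin, was at 586, 651 and 579 against 1717, 1525 and 1632 (-1.42). The longest length class held 6 of the 7, and their median went from -0.88 to -0.41 relative to the length class. The 2 risers, named after their values were seen, were CDH24 (0.98) and CDH10 (0.44), and CDH10 was not called without control replicate 1 (0.28).

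Genes of Hedgehog signalling and of transport in the primary cilium, the organelle in which Hedgehog signals are read, were lower on balance. 21 of 41 fell and 2 rose, with a median of -0.32. IFT172 and IFT88, subunits of the intraflagellar transport complex, were at 225, 227 and 181 and at 47.5, 73.4 and 74.4 with ASO2. Their control levels were 599.6, 637 and 592 for IFT172 and 176, 183 and 218 for IFT88, and neither gene's groups overlapped (log2 fold changes -1.53 and -1.57). GLI2, a transcription factor of the pathway, fell from 431, 355 and 337 to 133, 144 and 72 (-1.73 ± 0.16), the retrograde motor gene DYNC2H1 fell by 1.30 and the receptor PTCH1, itself a Hedgehog target, fell by 0.36. The members that rose were BOC (0.55), a co-receptor, and IFT52 (0.26), whose call was lost under total scaling. Without control replicate 3 the count of higher members was 4. Relative to genes of the same length class the median was -0.35. Among the 10 largest falls of genes with a mean of at least 50 whose groups did not overlap, TCTN1, of the ciliary transition zone, and CLUAP1, another intraflagellar transport gene, went from 272, 254 and 234 to 67.4, 53.5 and 62.4 and from 266, 287 and 279 to 63, 65.3 and 74.4.

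Cell cycle genes did not move as one. Of 71 genes of mitosis and G2/M, 39 rose and 22 fell, against 28 and 26 under total scaling. The median was 0.18, and 0.07 relative to the length class. MKI67, the proliferation marker, was at 13389.8, 13976 and 14942 with ASO2 and 9344, 9424 and 9171 with the control (0.60), TOP2A rose by 0.49 and AURKA by 0.58, while CDK1 was at -0.16 (limma adjusted p = 0.058). Of 60 genes of replication and G1/S, 28 fell and 18 rose (30%), lower on balance. Their median was only -0.09, or -0.13 relative to the length class. CDK6, a G1 kinase, fell from 2765, 2510.5 and 2689 to 1137, 1186 and 1056 (-1.24), CCND1 fell by 0.25, CCNE2 fell by 0.55 and E2F1 fell by 0.38. The origin subunits ORC1 and ORC2 went in opposite directions (1.03 and -1.49). POLA1, the polymerase of replication priming, fell by 1.39, while MCM2 and PCNA rose by 0.47 and 0.37.

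DNA repair genes were lower on balance, 38 of 69 down and 17 up (median -0.28), with 11 higher under total scaling. FANCI, of the Fanconi anaemia pathway, was at 1285, 1331 and 1203 with ASO2 and 3126, 3459 and 3489 with the control (-1.40 ± 0.06, limma adjusted p = 4.1e-17). BRCA2 fell by 1.11 and the helicase BRIP1 fell by 1.24. BRCA1 was at -0.16, a call lost in DESeq2 and when any of 4 of the 6 libraries was left out (ASO2 replicates 1 and 2, control replicates 2 and 3). The checkpoint kinase CHEK1 rose by 0.34. The longest length class held 16 of 69 members, and relative to the length class the median was -0.17.

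In metabolism, glycolysis and hypoxia genes were higher on balance, 21 up and 7 down of 40, with 13 and 11 under total scaling. HIF1A, the oxygen-regulated factor, was at 7519, 7762 and 8426 with ASO2 and 4076, 3762 and 4124 with the control (0.99), and its partner ARNT at 1557, 1714 and 1663 against 605, 578 and 655 (1.42). The glucose transporter SLC2A3 rose by 1.53, PDK1, which restrains pyruvate oxidation, by 0.94 and VEGFA by 0.63. Enzymes of glycolysis itself fell in part: ENO1 went from 29326, 28591 and 28819.8 to 17672, 18271 and 17324 (-0.70) and PFKP fell by 0.98.

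Fat metabolism was lower on balance on both sides. Of 22 genes of fatty acid synthesis and desaturation 13 fell and 5 rose, and of 44 genes of oxidation and peroxisomes 22 fell and 10 rose. The median of the first list was -0.43, or -0.18 relative to the length class, and that of the second was -0.22, or -0.30. The elongases ELOVL5 (-1.15) and ELOVL6 (-0.90) fell, SCD, a desaturase, rose by 0.43 and FASN was at -0.03 (limma adjusted p = 0.7). The oxidation enzymes ECHS1 (-0.92) and ACAA2 (-0.80) fell. Of 29 cholesterol genes 9 rose and 12 fell, and SREBF2, the master regulator, fell by 0.79.

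Respiratory chain subunits encoded in the nucleus rose in 41 of 78 cases and fell in 11, with 25 higher under total scaling. Their median was 0.18, and 0.01 relative to genes of their own length class. Of 13 messages of the mitochondrial genome 10 rose and 0 fell, with 4 higher and 1 lower under total scaling. The median of these messages was 0.19, and 0.01 relative to the length class. MT-ND2 rose by 0.43, and the calls of MT-CO1 (0.19) and MT-CYB (0.16) were lost under that scaling. The Krebs cycle list had 12 members higher and 6 lower, a balance that turned to 9 and 10 under total scaling. Fumarase, FH, was at 706, 721 and 727 with ASO2 and 1974, 2148 and 2175 with the control (-1.55 ± 0.06), and IDH3B fell by 1.39. Polyamine genes were higher in 12 of 18 cases: SAT1, the catabolic acetyltransferase, by 1.20, and ODC1, the first enzyme of synthesis, by 0.48.

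Autophagy genes were split, 22 higher and 19 lower of 51, and 14 and 19 under total scaling. ULK1, the initiating kinase, rose by 1.23, GABARAPL1 by 1.22 and the lysosomal regulator TFE3 by 1.17. The paralogs of the LC3 family differed: MAP1LC3B was at 1001, 1022 and 957 with ASO2 and 502, 556 and 509.8 with the control (0.93), and MAP1LC3A at 26.5, 19 and 8.4 against 52.3, 68.6 and 59.8 (-1.81). The cargo receptor SQSTM1 was at 0.11. Of 36 antioxidant genes controlled by NRF2, 15 rose and 13 fell, and 11 and 15 did so under total scaling. NQO1 rose by 0.87 and HMOX1, heme oxygenase, was at 233, 177 and 222 with ASO2 and 215, 211 and 173 with the control, with no call.

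Among transcription factor families, HOX genes rose in 8 of 14 cases and fell in 1 (median 0.56, or 0.37 relative to the length class). The HOXC5 (2.08), HOXC6 (1.21) and HOXC9 (1.00) genes of one cluster rose together, and HOXC6 was at 1198, 1119.5 and 1167 with ASO2 and 477, 554 and 473 with the control. SOX genes rose in 4 of 8 cases, with SOX2, a factor of neural progenitors, at 50.8, 58 and 54 against 9.42, 11.1 and 12.5 (2.21) and SOX9 at 1.04, while SOX11 was at 0.35 without a call. Zinc finger genes of the ZNF series were higher in 187 and lower in 119 of 447 cases, with a median of 0.16, or 0.09 relative to the length class.

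Protocadherins, adhesion proteins of neurons, were higher on balance, 21 of 50 up and 5 down. PCDH10, which has its own locus, went from 694, 617 and 589 to 2147, 2009 and 2128 (1.73), and the members of the clustered arrays share exons, so their single values are uncertain. Solute carriers were lower on balance, 83 of 189 down and 48 up.

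Antisense RNA genes were lower on balance. Of the 261 with such a symbol 103 fell and 18 rose, with a median of -0.45. These shares were 39.5% lower and 6.9% higher, against 33.8% of all genes in each direction. Of the 419 tested genes annotated as antisense RNA, with or without such a symbol, 33.7% were lower and 9.79% higher (median -0.36). The low share that rose thus departed more from all genes than the share that fell. PRDX6-AS1 was at 8.84, 7.25 and 6 with ASO2 and 43.9, 30.2 and 31.8 with the control (-2.11), and AFAP1-AS1 at 57.5, 53.5 and 85.2 against 31.4, 9.07 and 10.6 (2.06). Long intergenic RNAs of the LINC series fell in 42 of 121 cases and rose in 16, with a median of -0.35. The share that fell, 34.7%, was near the 33.8% of all genes, and the share that rose was 13.2%. Length classes were set on protein-coding genes and only 2 of the 121 had one, so this list has no median relative to length. Whether counting used strand is not given in the sources used here, so reads of an antisense gene and its partner cannot be told apart.

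The largest changes, among genes with a mean of at least 50 whose groups did not overlap, lay partly outside these lists. The amine oxidase genes AOC3 and AOC2, which are neighbouring paralogs that could share reads, went from 10.5, 15.1 and 3.86 to 150.3, 131 and 163 and from 19.9, 31.3 and 24.1 to 351, 287 and 287 (log2 fold changes 3.94 and 3.59). PSME3, another gene beside them, chosen for that place after its values were seen, was at 0.02 (limma adjusted p = 0.74). CTSK, the cysteine protease cathepsin K, rose from 37.7, 46.4 and 51.1 to 306, 268 and 308 (2.69), and ARNT, its neighbour in RefSeq, rose as given above. FERMT3, which encodes an integrin-binding protein, rose by 2.62, FBLIM1 by 2.54 and TENT5A, a poly(A) polymerase, by 2.38. The gene with the highest fold change among them, ENSG00000223414, has no symbol in the tables used and rose by 4.07. Among the falls, NIPAL3 went from 125, 126 and 115 to 33.1, 22.7 and 10.8 (-2.53), FAM227A fell by 2.42 and SLC16A9 fell by 2.38 on the log2 scale. NBR2 (-2.15), RFFL (-2.10), ARFIP1 (-2.07), COG6 (-2.05) and the receptor NOTCH3 (-2.01) complete the 10 largest with the cilium genes above.

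Gene length moved with the direction of change over all protein-coding genes. When the 11507 tested were split into 5 equal classes by the span of the gene in GENCODE release 29, 46.2% of the shortest length class (0.207 to 10.7 kb) were higher and 18.4% lower, with a median log2 fold change of 0.18. In the longest length class (96.9 to 2240 kb) 15% were higher and 61.7% lower, with a median of -0.47. The medians of the 3 classes between were 0.20, 0.08 and -0.12. Against ASO10 the medians ran from 0.14 in the shortest length class to -0.07 in the longest. The part of length in the results for single lists was not tested.

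**Figure D4:**
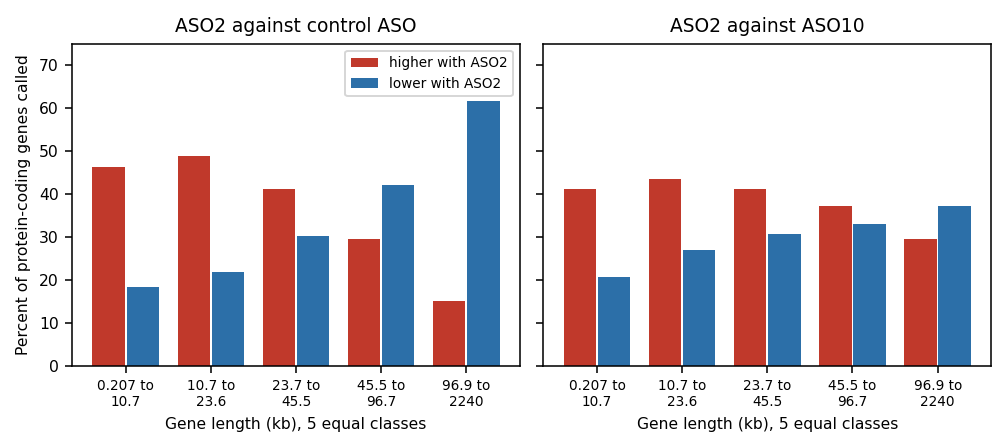
Percent of protein-coding genes called higher (red) or lower (blue) with ASO2 in 5 classes of gene length (kb), against the control on the left and against ASO10 on the right. Against the control the blue bars climb from 18.4% in the shortest length class to 61.7% in the longest while the red bars end at 15%.

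Compared with ASO10 in the same cells, 4721 genes were higher and 3881 lower with ASO2, 64.6% of those tested in all, 35.5% higher and 29.2% lower (limma, Benjamini-Hochberg). This test does not use the control libraries, but it shares the ASO2 libraries with the first comparison. Heat shock genes stood higher with ASO2 than with ASO10 in 30 of 39 cases. DNAJB1 was at 1236, 1091 and 1164 with ASO10, lower than with ASO2 by a log2 difference of 1.31 ± 0.06 (limma adjusted p = 8.3e-17), and HSPH1 was at 5289.6, 4556 and 4837 (1.14). Immediate early genes were higher with ASO2 in 19 of 26 cases, FOS by 0.84 and NR4A3 by 2.46.

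The amino acid response differed from these lists. 19 of its 41 members were lower with ASO2 than with ASO10 and 8 higher (median -0.10). ATF4 was at 8097, 9009 and 8792 with ASO10, a log2 difference of -0.10 ± 0.05 that did not pass the test (limma adjusted p = 0.12). TRIB3 and DDIT3 were lower with ASO2 than with ASO10, by log2 differences of -0.78 and -0.59. GDF15 was at 705, 991 and 791 with ASO10, a log2 difference of -2.09, and BBC3 was lower with ASO2 by -0.82. In contrast, MTHFD2, a mitochondrial folate enzyme, was higher with ASO2 (1.02). Host genes of small nucleolar RNAs were lower with ASO2 in 12 of 25 cases and higher in 3.

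Some genes that ASO2 changed against the control had like levels with both oligonucleotides. NEAT1 was at 544, 526 and 565 with ASO10 (log2 difference -0.01 ± 0.07, limma adjusted p = 0.94) and PHOX2A at 2336, 2179 and 2227 (0.07 ± 0.06, limma adjusted p = 0.32). A difference that did not pass the test does not show that the levels were equal. Others differed widely: NOTCH3 was at 451, 553 and 428 with ASO10 (-4.12), MAP1LC3B at 116, 135 and 114 (3.02), CCNT1 at 451, 299.7 and 421 (0.76) and TRRAP at 1161, 983 and 1018 (1.85). CCNK and SETDB1 were lower with ASO2 than with ASO10 as well as lower than with the control (-1.86 and -1.78 against ASO10).

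**Figure D5:**
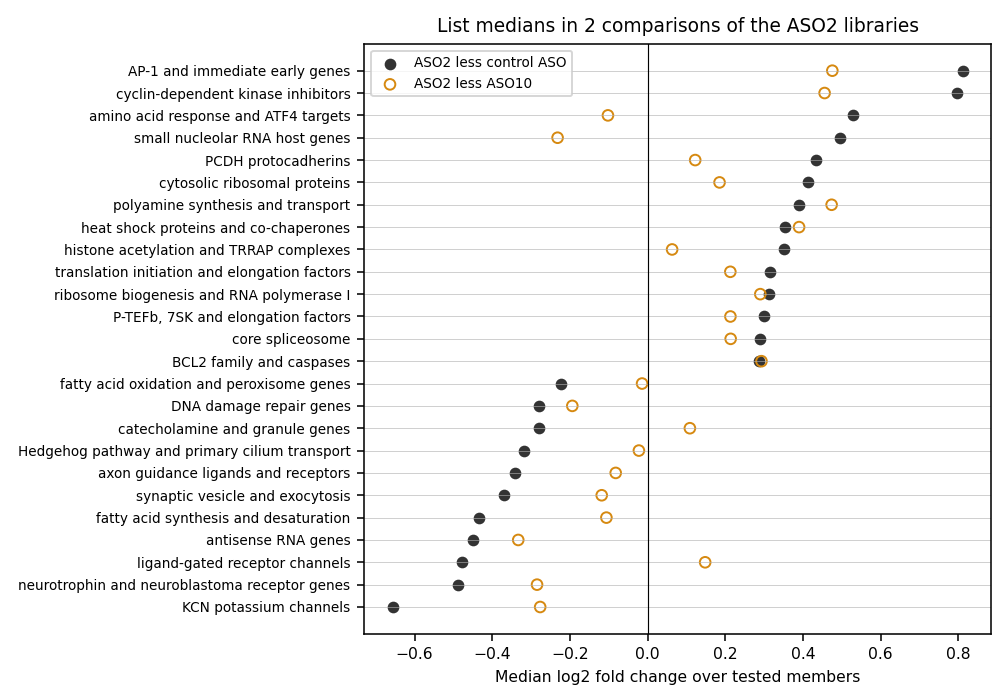
Median log2 fold change over tested members for the 11 lowest and 14 highest of the 40 plotted lists, ASO2 less control (filled) and ASO2 less ASO10 (open). The amino acid response and the host genes of small nucleolar RNAs lie above 0 against the control and below 0 against ASO10, while heat shock genes lie at about the same place in both.

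Markers of other cell types differed in level. The summed levels of 9 epithelial markers were 125 to 163 with ASO2 and 101 to 111 with the control, with KRT5 at 0. Of 4 tested, 2 rose and 0 fell. CLDN4 was at 55.2, 60.7 and 45.6 with ASO2 and 31.4, 27.2 and 30.8 with the control, while KRT19 and MUC1 overlapped between groups. The 9 blood cell markers summed to 48.6 to 67.1 against 30.3 to 42.4, with PTPRC, CD3E and ITGAM among those at 0. Only CD14 of the 9 was tested, at 38.7, 56.2 and 48 with ASO2 and 27.2, 29.2 and 29.9 with the control. Fibroblast markers summed to 1507 to 1591 with ASO2 and 1317 to 1356 with the control, and of 6 tested 5 rose and 1 fell. The highest were PDGFRB, at 652, 617 and 624 with ASO2 and 809, 746 and 743 with the control, and DCN, at 351, 359 and 359 against 252, 255 and 253; COL1A2 stayed under 5 in all 6 libraries. Schwann cell markers overlapped between groups, with SOX10 and CDH19 at 0. The part of these markers in the results above was not tested.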

How the data were processed

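RNA sequencing libraries of SK-N-BE(2)c cells were used: 3 each of ASO2, ASO10 and the control. The members and gene lists were chosen with earlier results of these data known. The authors deposited 1 table of normalised gene counts per cell line. Per the labels, the authors had normalised this signal before they deposited it, and the values are gene counts divided by 1 size factor per library. The submitters' processing notes name FastQC 0.11.8, cutadapt 1.18, STAR 2.6.0, HTSeq 0.6.1 and DESeq2 1.42.0, and the builds hg19 and GRCh37; strand settings and the annotation are not given in the sources used here. Per the labels' protocols, libraries came from a stranded total RNA kit sequenced in pairs or a stranded mRNA kit sequenced from one end, which changes how much unspliced RNA is counted.

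Whole reads were recovered from the steps between low values (100% of values within 0.01 of a whole number), 11497829 to 15060356 reads per library; 0 columns of samples were left unused. No pair of replicates agreed within sampling noise (chi-square per degree of freedom 2.35 to 5.00). Gene IDs gave a symbol for 89.8% of genes and gene lengths (GENCODE 29) for 97.7% of tested genes. Log2(value + 1) was tested with limma 3.58.1 (R 4.3.3, mean-variance trend, all 9 libraries) where the mean over the 6 libraries was at least 10, with Benjamini-Hochberg adjustment over all 13307 genes. A pseudocount of 1 understates changes of low genes. The exact permutation test cannot go below p = 0.1 with 3 against 3 libraries and was not used. The scripts were tested on simulated data.

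Named genes were fixed members of each list and up to 4 called members per direction with a mean of at least 20, plus the 10 largest changes per direction with a mean of at least 50; families were taken by symbol, and some named genes are not reported here. Lists were described by counts and medians, with no test of their own, and some genes are members of several lists. Alternatives were other scalings, pseudocounts, filters and fold thresholds, edgeR 4.0.16 and DESeq2 on the recovered reads, a replicate block, the 6 libraries alone, and leaving out each library. The comparison of list medians within length classes was added after seeing the data. Promoter sequences are RefSeq's (GRCh38.p14), matched by symbol for 9903 tested genes; gene positions of the authors' build are not given. Intervals were not computed, and all p-values cover only the spread between these libraries.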

Additional observations from a re-analysis of the deposited data

How the results depend on the processing

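No gene called in the main analysis of ASO2 against the control was called in the opposite direction under any of the alternatives run. Calls numbered 8439 to 8634 without any single library, 9002 in the 6 libraries alone, 9012 with TMM, 9025 in edgeR (8884 shared), 8662 in DESeq2 (8622 shared) and 9060 with total scaling (7968 shared; 38.2% of the 9060 were higher, against 50% before). A threshold of 1 on the log2 fold change left 564 higher and 1133 lower genes against the control, and 599 higher and 1033 lower against ASO10; one of 0.5 left 2358 higher genes against the control. Without control replicate 1, whose name is spelled otherwise, 4331 genes were higher and 4194 lower. Replicate numbers did not pair the libraries (correlations of deviations 0.03, -0.06 and 0.08 for the same number), and with a replicate block 9165 genes were called, 8980 of them shared, with 3 of 290 single genes examined changing their call against the control and 5 of 290 against ASO10. Under total scaling RPL3 turned to -0.027 (limma adjusted p = 0.62) and PSME3 to -0.12 (limma adjusted p = 0.032). Genes without a call in the main analysis that gained one included HSPA8 (-0.14), FASN (-0.17), SLC7A11 (-0.26) and CDK1 (-0.29) under total scaling, SQSTM1 (0.18) without control replicate 1, HSP90B1 (0.15) and NPM1 (0.24) without control replicate 3, and IFIT1 (1.31) without ASO2 replicate 1. Of 95 lists with at least 10 genes tested, 61 had a median above and 33 below that of all genes under 3 scalings, and 1 changed side. Depth limits the genes with a mean under 10, which were left untested.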
